A study of Mus musculus with 12 samples.

Results

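Interferon-stimulated genes are the genes that a cell switches on when an interferon binds its receptor, and 34 of them were followed in mouse embryonic fibroblasts (MEFs) after 24 h with an inhibitor of the kinase mTOR. They were chosen by name, and each matched 1 of the 49315 genes in the count tables. Of the 34 genes, 32 passed the filter on low counts, as did 15917 genes in all. The cells, connective tissue cells cultured from mouse embryos, received rapamycin at 20 ng/ml, Torin1 at 250 nM, RapaLink-1 at 10 nM or DMSO alone. Rapamycin binds FKBP12 and with it mTOR complex 1, Torin1 competes with ATP at the mTOR kinase, and RapaLink-1 is rapamycin coupled through a linker to an inhibitor of the mTOR kinase. Each group held 3 libraries, with total counts between 30075870 and 39423703. The labels give no strain, genotype or number of embryos, and no interferon or virus is named among the treatments. Nor do they state that the replicates were grown as independent cultures, and the p-values given here cover just the variation among these libraries, which may be technical.

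The cells were checked by marker genes. Fibroblast markers (Col1a1, Col1a2, Col3a1, Pdgfra, Pdgfrb, Thy1 and Vim), all 7 of them present, summed to 1938 to 1982 RPKM with rapamycin, 1907 to 1928 with Torin1, 1930 to 1972 with RapaLink-1 and 2269 to 2310 in DMSO. RPKM are reads per kilobase of exonic length and per the size of the library, here with scaled library sizes. The 8 leukocyte markers summed to 4.85 to 5.88 RPKM with rapamycin, 4.80 to 5.43 with Torin1, 4.96 to 5.80 with RapaLink-1 and 6.12 to 6.52 in DMSO, and the pan-leukocyte marker Ptprc had 0 to 2 counts in every library. Adgre1, Itgam and Cd3e were likewise at 0 to 2 counts. Of the leukocyte markers 3 passed the filter. Csf1r, a growth factor receptor of macrophages, rose 3.12-fold with Torin1 and 3.13-fold with RapaLink-1, at 15 to 27 counts per library with rapamycin, 36 to 46 with Torin1, 30 to 50 with RapaLink-1 and 7 to 21 in DMSO, while Cd14 fell with each compound and Cd68 was not called. The 7 fibroblast markers went both ways, with 2 higher and 5 lower with rapamycin, 4 and 3 with Torin1, and 2 and 4 with RapaLink-1, and log2 fold changes of -1.28 (Col3a1) to 0.60 (Thy1). The 4 endothelial markers summed to 0.137 to 0.214 RPKM with rapamycin, 0.278 to 0.308 with Torin1, 0.320 to 0.355 with RapaLink-1 and 0.0963 to 0.196 in DMSO. Kdr was the 1 of them tested and rose 2.39-fold with Torin1 and 2.88-fold with RapaLink-1, while Cdh5 had 0 to 3 counts per library. The 4 epithelial markers summed to 0.154 to 0.264 RPKM with rapamycin, 0.386 to 0.660 with Torin1, 0.220 to 0.268 with RapaLink-1 and 0.178 to 0.233 in DMSO. Of the 2 tested, Krt8 was called higher with Torin1, at 12 to 22 counts per library, and with RapaLink-1, at 5 to 6, against 0 to 2 in DMSO, and Cdh1 was not called. Krt8 reached the minimum of the low-count filter in its Torin1 libraries, and not in DMSO or with RapaLink-1. The part of these marker shifts in the results that follow was not tested. In such bulk libraries, fewer cells of a type and less RNA per cell cannot be told apart.

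Type I interferons bind the receptor made of IFNAR1 and IFNAR2, which activates the kinases JAK1 and TYK2. These activate transcription factors of the STAT family. A complex that holds STAT2 and IRF9 binds the interferon-stimulated response element (ISRE), while interferon gamma acts on genes that carry the gamma-activated sequence (GAS). The induced proteins sense viral RNA, block its translation, modify other proteins or attack vacuoles that hold microbes, and many cells keep a low level of these messages without infection.

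The ISRE was looked for in the members' promoters. Promoters are shown for 6 members that carried it, 4 whose messages rose with the inhibitors and 2 that were called lower with at least 1 of them. These 6 had the largest changes among the members given per library that hold the core. They show the same letters on both sides of the response. The search used the core GAAA, then any 2 bases, then GAAA, on both strands (so that it may read TTTC, 2 bases, TTTC) in RefSeq promoter windows of the build GRCm38.p6, from 250 bases before to 50 bases after each annotated start. Each line gives the 150 bases just before the start, 5′ to 3′ on the gene's strand, with the core in capitals. The start is that of the RefSeq window and can differ from the gene's start in the count tables. The stretch of Irgm1 lies wholly, and those of Gbp2, Gbp3 and Ifit1 partly, within the gene's span in the count tables. The cores of Irgm1 and Gbp2 lie within that span. The stretches are chr3:142620513-142620662, chr3:142559894-142560043, chr11:58199406-58199555 and chr19:34640739-34640888 on the plus strand, and chr11:48871421-48871570 and chr4:156200819-156200968 on the minus strand.
Gbp2: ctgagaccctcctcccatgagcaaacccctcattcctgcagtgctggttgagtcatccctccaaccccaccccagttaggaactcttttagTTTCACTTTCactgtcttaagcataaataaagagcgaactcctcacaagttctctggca
Gbp3: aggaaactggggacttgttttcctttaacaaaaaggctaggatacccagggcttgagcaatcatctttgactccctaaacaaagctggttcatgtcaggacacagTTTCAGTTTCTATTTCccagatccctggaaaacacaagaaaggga
Igtp: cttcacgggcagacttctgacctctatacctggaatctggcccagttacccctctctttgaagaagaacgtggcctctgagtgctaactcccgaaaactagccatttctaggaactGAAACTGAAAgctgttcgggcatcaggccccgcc
Irgm1: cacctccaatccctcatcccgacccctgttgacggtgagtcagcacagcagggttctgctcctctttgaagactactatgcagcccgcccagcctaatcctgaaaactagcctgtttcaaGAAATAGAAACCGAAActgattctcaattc
Ifit1: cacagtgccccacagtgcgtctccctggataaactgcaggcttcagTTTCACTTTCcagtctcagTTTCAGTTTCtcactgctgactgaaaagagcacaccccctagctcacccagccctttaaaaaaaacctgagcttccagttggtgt
Isg15: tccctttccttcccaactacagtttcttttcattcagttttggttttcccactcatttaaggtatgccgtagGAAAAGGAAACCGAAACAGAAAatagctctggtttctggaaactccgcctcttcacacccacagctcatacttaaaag

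The core began 59 bases before the start of Gbp2 and 34 bases before that of Igtp. In Gbp3 and Irgm1 it occurred as a pair of overlapping copies, the first of them 45 and 30 bases before the start. A second window of Gbp3, at chr3:142560106-142560405, held no core. Ifit1 had separate copies 104 and 85 bases before its start, and Isg15 had a run of 3 overlapping copies from 78 bases before it. A promoter window was on hand for 28 of the 34 members. The core was in 16 of these 28 (57.1%), against 3.99% of the 27025 genes with a window and 3.44% of all 32851 windows. The longer form, the same core followed by CT, was in 10 of the 28 (35.7%), against 0.303% of genes and 0.271% of windows. The GAS letters TTCNNNGAA were in 9 of the 28 (32.1%), against 9.55% of genes and 8.30% of windows, and in Bst2 they overlapped the ISRE core. No entry was on hand for Dhx58, Ifi27, Parp14, Parp9, Rtp4 and Usp18.

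**Figure D1:**
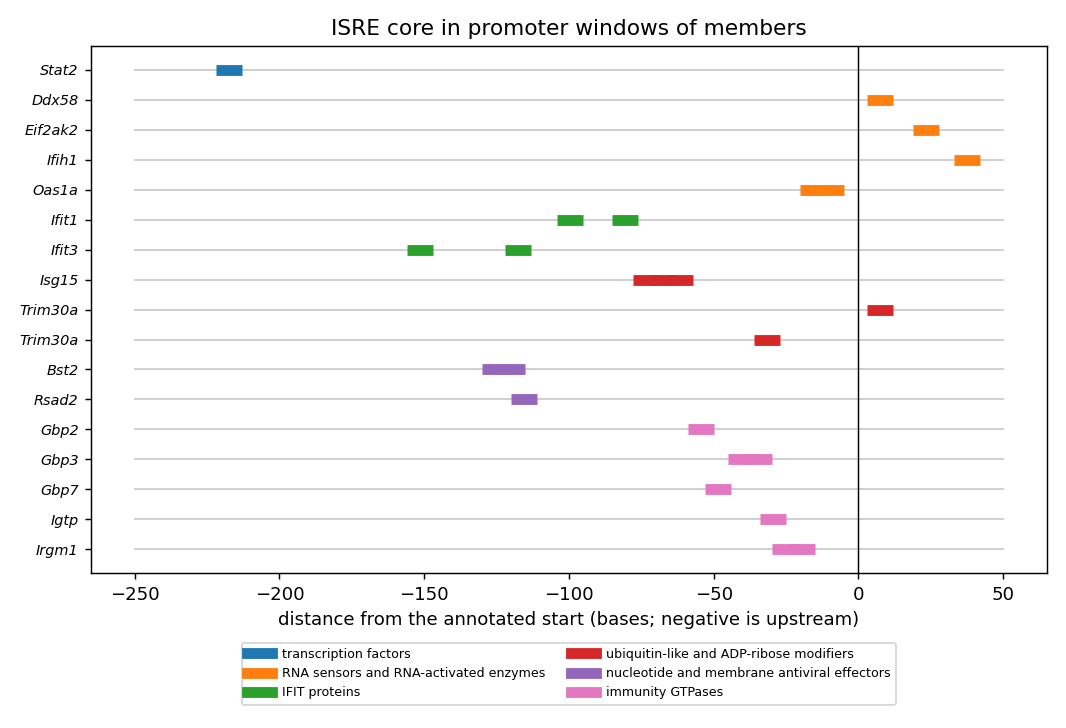
Position of the ISRE core in promoter windows of members, in bases from the annotated start (negative is upstream), coloured by role; grey lines are the windows that hold a core, of which Trim30a has 2. In the immunity GTPases the core lies within 59 bases before the start, and in Ddx58, Eif2ak2, Ifih1 and 1 window of Trim30a it lies after the start.

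Against DMSO, more of the members rose than fell with each compound. With rapamycin 14 of the 32 members tested rose and 4 fell (43.8% and 12.5%), where 27.5% of all genes tested rose and 32.2% fell. With Torin1 21 rose and 6 fell (65.6% and 18.8%), where 39.8% of all genes rose and 38.3% fell. With RapaLink-1 21 rose and 5 fell (65.6% and 15.6%), where 38.7% of all genes rose and 37.9% fell. A call is an adjusted p under 0.05 in edgeR's quasi-likelihood test. The libraries of a group were close, and the common coefficient of variation beyond counting noise, as fitted by edgeR, was 1.48%. Single members could vary more, such as Usp18 with rapamycin at 0.256 ± 0.103 RPKM (SD, n = 3). The median log2 fold change of the members was 0.14 with rapamycin, 0.62 with Torin1 and 0.74 with RapaLink-1, against 0.00, 0.04 and 0.03 over all genes tested. Rises of at least 2-fold were called in 1 member with rapamycin, 7 with Torin1 and 11 with RapaLink-1, where 3.04%, 12.1% and 10.5% of all genes had one. Treated and DMSO libraries did not overlap for 17 members with rapamycin, 30 with Torin1 and 27 with RapaLink-1, where 63.0%, 78.5% and 77.6% of all genes did not. The 3 comparisons share the DMSO libraries. A difference somewhere among the 4 groups was called for 28 of the 32 members (87.5%), where 85.3% of all genes had one.

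With upper-quartile scaling in place of TMM, the median of all genes moved up to 0.07 with rapamycin, 0.16 with Torin1 and 0.16 with RapaLink-1. Over all genes it called 5481 higher and 4061 lower with rapamycin, where TMM scaling called 4381 and 5127, and 7629 higher and 4823 lower with RapaLink-1, where TMM scaling called 6165 and 6036. Among the members it called 15 higher and 3 lower with rapamycin, 22 and 6 with Torin1, and 22 and 3 with RapaLink-1. Of the 131 calls over all 6 comparisons it reversed the sign of 3, those of Eif2ak2 for RapaLink-1 against DMSO and of Samhd1 for Torin1 and for RapaLink-1 against rapamycin.

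**Figure D2:**
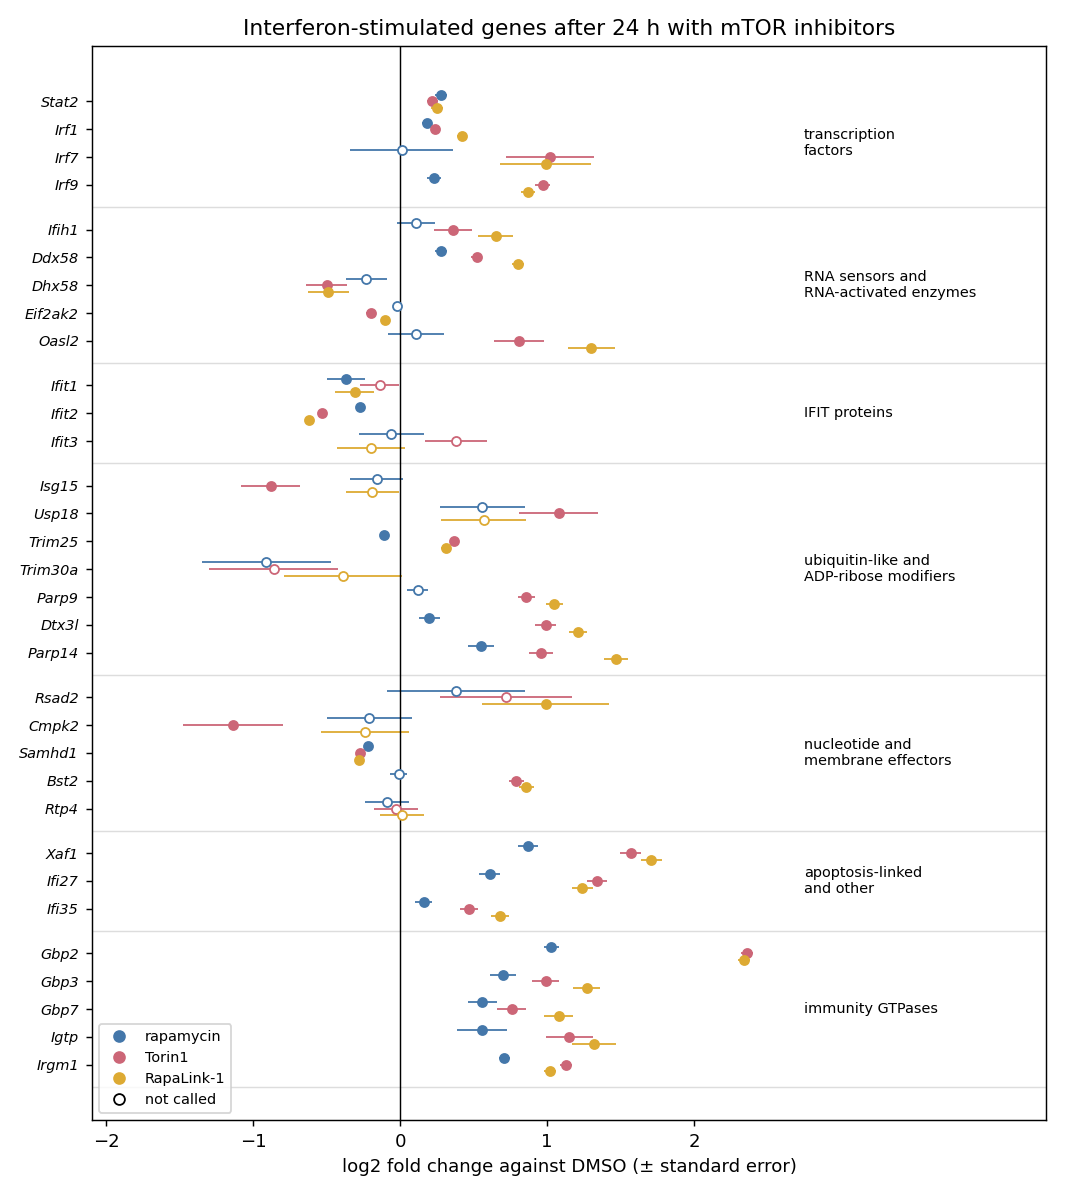
Log2 fold change against DMSO of the 32 members tested, by role, with standard errors; filled points were called at an adjusted p under 0.05. The immunity GTPases, Xaf1 and Ifi27 lie to the right of 0 with each compound, while Ifit2 and Samhd1 lie to its left.

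**Figure D3:**
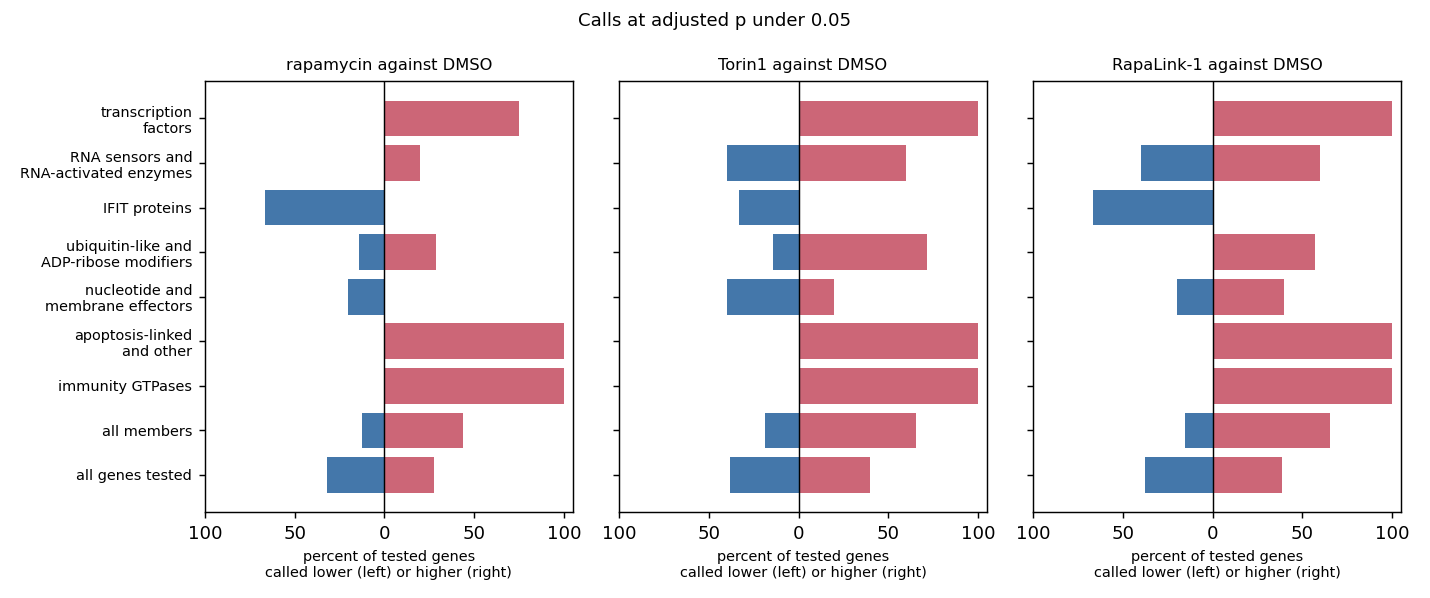
Percent of the tested members of each role called lower (bars to the left) or higher (bars to the right) against DMSO, beside all members and all 15917 genes tested; roles hold 3 to 7 tested members. The immunity GTPases and the apoptosis-linked and other proteins reach 100% higher with each compound. The IFIT proteins have no member called higher with the TMM scaling used here (Ifit3 was, with Torin1, under upper-quartile scaling).

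At the head of the pathway, the interferon messages were at or near 0. Ifnb1 had 0 to 1 counts in every library, and Ifna2, Ifna4, Ifng, Ifnl2 and Ifnl3 had none in any of the 12. A single library at 0 allows an expected count of up to 3, and 12 libraries at 0 allow less per library. Both receptor chains rose with each compound. The log2 fold change of Ifnar1 was 0.30 with rapamycin, 0.45 with Torin1 and 0.40 with RapaLink-1, and that of Ifnar2 was 0.15, 0.34 and 0.17. Among the receptor kinases Tyk2 rose by 0.29, 0.63 and 0.58, while Jak1 was at 0.00 with rapamycin, -0.13 with Torin1 and -0.03 with RapaLink-1, of which the Torin1 value was called.

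The transcription factors of the response rose. Of the 4 members, 3 rose with rapamycin, 4 with Torin1 and 4 with RapaLink-1, and none fell. Beside the counts of this and the following roles stand the shares of all genes tested. These were 27.5% higher and 32.2% lower with rapamycin, 39.8% and 38.3% with Torin1, and 38.7% and 37.9% with RapaLink-1. Irf9, which gives the STAT complex its DNA contact, had a mean of 3.75 ± 0.192 RPKM with rapamycin, 6.25 ± 0.209 with Torin1, 5.83 ± 0.0931 with RapaLink-1 and 3.20 ± 0.228 in DMSO (SD, n = 3 each). Its log2 fold change was 0.23 ± 0.05 with rapamycin, 0.97 ± 0.05 with Torin1 and 0.87 ± 0.05 with RapaLink-1. Stat2, a part of that complex, rose by a like amount with all 3, at 0.28, 0.22 and 0.25. Irf1, an activator induced by interferon gamma, rose by 0.18, 0.24 and 0.42. Irf7, which drives interferon alpha genes, had 10 to 32 counts per library. It was at 0.01 ± 0.35 with rapamycin, and it rose by 1.02 ± 0.30 with Torin1 and 0.99 ± 0.31 with RapaLink-1.

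Sensors of viral RNA moved in both directions. Of the 5 tested, 1 rose with rapamycin and none fell, while with Torin1 and with RapaLink-1 3 rose and 2 fell (1 with RapaLink-1 under upper-quartile scaling). No difference of these counts from the shares of all genes just given was tested. Ddx58, the sensor RIG-I, rose by 0.28 ± 0.04 with rapamycin, 0.52 ± 0.04 with Torin1 and 0.80 ± 0.04 with RapaLink-1 on the log2 scale. Ifih1, the sensor MDA5, was at 0.11 with rapamycin without a call and rose by 0.36 with Torin1 and 0.65 with RapaLink-1. Dhx58 encodes LGP2, the third member of that helicase family, which lacks the signalling domains. Dhx58 (chr11:100694884-100704271) had 0.828, 0.615 and 0.824 RPKM with rapamycin, 0.610, 0.607 and 0.669 with Torin1, 0.559, 0.695 and 0.638 with RapaLink-1, and 1.04, 0.856 and 0.767 in DMSO. The Torin1 and RapaLink-1 libraries all lay below those of DMSO, and the rapamycin libraries overlapped them. Its log2 fold change was -0.23 ± 0.14 with rapamycin (adjusted p = 0.153), -0.50 ± 0.14 with Torin1 (adjusted p = 0.00104) and -0.49 ± 0.14 with RapaLink-1 (adjusted p = 0.00132).

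Oasl2, a relative of the oligoadenylate synthetases, rose with Torin1 and RapaLink-1. It had 0.223, 0.206 and 0.186 RPKM with rapamycin, 0.308, 0.343 and 0.343 with Torin1, 0.436, 0.507 and 0.455 with RapaLink-1, and 0.173, 0.201 and 0.197 in DMSO. Rapamycin and DMSO libraries overlapped, and the RapaLink-1 libraries were the highest. The log2 fold change was 0.11 ± 0.19 with rapamycin, 0.81 ± 0.17 with Torin1 and 1.30 ± 0.16 with RapaLink-1. Eif2ak2 encodes PKR, which halts translation when it meets double-stranded RNA. Eif2ak2 had 10.7, 11.1 and 10.5 RPKM with rapamycin, 9.26, 9.27 and 9.86 with Torin1, 9.95, 10.2 and 10.3 with RapaLink-1, and 10.7, 11.2 and 10.8 in DMSO. Its Torin1 and RapaLink-1 libraries lay below DMSO, and its rapamycin libraries overlapped DMSO. Eif2ak2 fell by 0.20 ± 0.03 with Torin1 and by 0.10 ± 0.03 with RapaLink-1 on the log2 scale, was at -0.02 ± 0.03 with rapamycin, and turned to 0.03 with RapaLink-1 under upper-quartile scaling. Its RapaLink-1 call was also lost with only genes of at least 5 CPM on average (-0.02). The core lay after the start in Ddx58, Ifih1 and Eif2ak2, of which the first 2 rose with Torin1 and RapaLink-1. Oas1a, which makes the activator of RNase L, failed the filter with 0 to 9 counts per library, the highest of them with Torin1.

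The IFIT proteins, which bind viral RNA caps and ends, had no member that rose with TMM scaling, while Ifit3 rose with Torin1 under upper-quartile scaling (0.51). Their genes form a cluster on chromosome 19, where Ifit3 begins 7112 bases after the end of Ifit2. Ifit2 (chr19:34550694-34576419) had 12.3, 12.3 and 12.1 RPKM with rapamycin, 10.2, 10.5 and 10.2 with Torin1, 9.98, 9.19 and 9.70 with RapaLink-1, and 14.6, 15.3 and 14.5 in DMSO. All 9 treated libraries lay below the 3 DMSO libraries. The log2 fold change was -0.27 ± 0.03 with rapamycin (adjusted p = 3.09e-13), -0.53 ± 0.03 with Torin1 (adjusted p = 1.14e-32) and -0.62 ± 0.03 with RapaLink-1 (adjusted p = 2.29e-39). Ifit1 (chr19:34640871-34650009), whose promoter carries the 2 separate copies of the core shown above, had 0.988, 0.951 and 0.901 RPKM with rapamycin, 1.26, 1.05 and 1.02 with Torin1, 0.972, 1.08 and 0.898 with RapaLink-1, and 1.31, 1.13 and 1.21 in DMSO. The rapamycin and RapaLink-1 libraries all lay below those of DMSO, and the Torin1 libraries overlapped them. Ifit1 fell with rapamycin (-0.37 ± 0.13) and with RapaLink-1 (-0.31 ± 0.13), and the Torin1 value of -0.14 ± 0.13 was not called. The rapamycin call of Ifit1 was lost without DMSO replicate 1 (-0.31) or rapamycin replicate 3 (-0.33), and its RapaLink-1 call without DMSO replicate 1 (-0.25), RapaLink-1 replicate 1 (-0.30) or RapaLink-1 replicate 3 (-0.24). The RapaLink-1 call was also lost under upper-quartile scaling (-0.17) and in the DESeq2 test (-0.31, adjusted p = 0.0649). Ifit3, at 28 to 55 counts, was not called with any compound (-0.06, 0.38 and -0.20).

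Among the modifiers, Parp14, Parp9 and Dtx3l rose with Torin1 and with RapaLink-1, and the ubiquitin-like protein gene Isg15 fell with Torin1. Of 7 members 2 rose and 1 fell with rapamycin, 5 rose and 1 fell with Torin1, and 4 rose and none fell with RapaLink-1. Parp14 (chr16:35832874-35871544), a transferase that adds single ADP-ribose units, had 0.846, 0.773 and 0.888 RPKM with rapamycin, 1.25, 0.960 and 1.14 with Torin1, 1.65, 1.58 and 1.54 with RapaLink-1, and 0.587, 0.547 and 0.582 in DMSO. The 4 groups did not overlap. The log2 fold change of Parp14 was 0.55 ± 0.09 with rapamycin, 0.96 ± 0.08 with Torin1 and 1.47 ± 0.08 with RapaLink-1. Dtx3l, a ubiquitin ligase, and Parp9, its partner protein, lie head to head beside Parp14, and their spans overlap. Dtx3l rose by 0.20, 0.99 and 1.21 with rapamycin, Torin1 and RapaLink-1, and Parp9 was at 0.12 without a call (called at 0.18 under upper-quartile scaling and with only genes of at least 5 CPM on average) and rose by 0.86 and 1.05. Since 8.0% of the exonic length of Dtx3l and 9.4% of that of Parp9 are shared on opposite strands, some reads cannot be told apart. The rapamycin call of Dtx3l was lost without DMSO replicate 1 (0.10) or rapamycin replicate 2 (0.15).

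Isg15 (chr4:156199424-156200818) was lower with Torin1. It had 1.88, 2.20 and 2.00 RPKM with rapamycin, 1.45, 1.2 and 1.06 with Torin1, 2.12, 1.89 and 1.94 with RapaLink-1, and 2.26, 2.40 and 2.10 in DMSO. All 3 Torin1 libraries lay below the other 9, and the remaining groups overlapped. The log2 fold change was -0.16 ± 0.18 with rapamycin, -0.88 ± 0.20 with Torin1 (adjusted p = 2.94e-05) and -0.19 ± 0.18 with RapaLink-1. Its promoter has the run of 3 overlapping cores printed above. Usp18, which strips ISG15 from its targets and restrains the interferon receptor, was at 0.56 with rapamycin and 0.57 with RapaLink-1 without a call and rose by 1.08 ± 0.27 with Torin1. At 16 to 51 counts per library, Usp18 was called with rapamycin without rapamycin replicate 1 (0.79) and with RapaLink-1 without RapaLink-1 replicate 3 (0.73) or under upper-quartile scaling (0.70).

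Trim25, a ubiquitin ligase that acts on RIG-I, was the member called in opposite directions. It had 7.74, 8.16 and 8.31 RPKM with rapamycin, 11.3, 11.3 and 11.1 with Torin1, 10.5, 11.3 and 10.4 with RapaLink-1, and 8.65, 8.70 and 8.72 in DMSO. The rapamycin libraries were all below those of DMSO and the other treated libraries all above them. Trim25 rose by 0.37 ± 0.03 with Torin1 and 0.31 ± 0.03 with RapaLink-1, and fell by 0.11 ± 0.03 with rapamycin on the log2 scale. That fall was not called with upper-quartile scaling (-0.04), with only genes of at least 5 CPM on average (-0.05) or without rapamycin replicate 1 (-0.08). Trim30a, a mouse TRIM protein that restrains Toll-like receptor signalling, had 3 to 15 counts per library and was not called (-0.91, -0.86 and -0.39), except that it was at -1.73 with rapamycin, and called, without rapamycin replicate 3.

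Effectors that act on nucleotides and membranes gave mixed results, with 0 of 5 higher and 1 lower with rapamycin, 1 and 2 with Torin1, and 2 and 1 with RapaLink-1. Such counts were not tested against the shares of all genes, given above with the transcription factors. Samhd1 (chr2:157097533-157135265), which breaks down the nucleotides that reverse transcription needs, had 16.8, 16.6 and 17.0 RPKM with rapamycin, 16.2 in each of the 3 Torin1 libraries, 15.8, 16.2 and 16.4 with RapaLink-1, and 19.4, 20.0 and 19.4 in DMSO. All 9 treated libraries lay below DMSO. Samhd1 fell by 0.22 ± 0.02 with rapamycin, 0.27 ± 0.02 with Torin1 and 0.28 ± 0.02 with RapaLink-1 on the log2 scale. Bst2, the tether that holds budding virus at the cell surface, averaged 14.2 ± 0.375 RPKM with rapamycin, 24.9 ± 0.793 with Torin1, 26.1 ± 0.376 with RapaLink-1 and 14.4 ± 1.00 in DMSO (SD, n = 3 each). It rose by 0.79 ± 0.05 with Torin1 and 0.86 ± 0.05 with RapaLink-1, and with rapamycin it was at -0.01 ± 0.06. Rtp4, a chaperone of membrane receptors, was not called with any compound (-0.09, -0.03 and 0.01).

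Rsad2 and Cmpk2 are transcribed away from each other on chromosome 12, with starts 12752 bases apart. Rsad2 encodes viperin, which makes a chain-terminating nucleotide, and Cmpk2 a nucleotide kinase of mitochondria. Cmpk2 (chr12:26469204-26479835) had 0.192, 0.160 and 0.181 RPKM with rapamycin, 0.0805, 0.0887 and 0.108 with Torin1, 0.255, 0.154 and 0.127 with RapaLink-1, and 0.148, 0.326 and 0.157 in DMSO. The Torin1 libraries, with 8 to 13 counts, were the 3 lowest, and DMSO replicate 2 stood far above its group. Cmpk2 fell by 1.14 ± 0.34 with Torin1 on the log2 scale (adjusted p = 0.00154), and without DMSO replicate 2 the value was -0.70 and not called. It was at -0.21 with rapamycin and -0.24 with RapaLink-1. Rsad2 had 7 to 12 counts with rapamycin, 8 to 13 with Torin1, 8 to 22 with RapaLink-1 and 6 to 7 in DMSO, where it did not reach the minimum of the filter. Its rise of 0.99 ± 0.43 with RapaLink-1 (adjusted p = 0.0301) was lost without RapaLink-1 replicate 2 (0.43), DMSO replicate 1 (0.99) or DMSO replicate 3 (0.93), and it was not called by DESeq2 or with no filter on low counts.

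The apoptosis-linked and other induced proteins rose with each compound in all 3 members tested. Xaf1 (chr11:72301629-72313733), which binds the caspase inhibitor XIAP, had 2.49, 2.54 and 2.26 RPKM with rapamycin, 4.11, 3.93 and 3.80 with Torin1, 4.43, 4.24 and 4.37 with RapaLink-1, and 1.33, 1.22 and 1.43 in DMSO. The rapamycin libraries stood between DMSO and the other 2 treatments with no overlap. The fold change was 1.82 with rapamycin, 2.97 with Torin1 and 3.27 with RapaLink-1, or 0.87 ± 0.07, 1.57 ± 0.07 and 1.71 ± 0.07 on the log2 scale. Ifi27 (chr12:103434211-103440239), a small membrane protein of mitochondria and the nuclear envelope, had 8.37, 7.54 and 7.04 RPKM with rapamycin, 12.4, 12.6 and 13.1 with Torin1, 12.5, 11.8 and 11.3 with RapaLink-1, and 5.35, 4.69 and 4.96 in DMSO. The treated libraries all lay above DMSO, and those of Torin1 and RapaLink-1 overlapped. Ifi27 rose by 0.61 ± 0.07, 1.34 ± 0.07 and 1.24 ± 0.07 on the log2 scale in that order of compounds. Ifi35 rose by 0.16, 0.47 and 0.68, with the rapamycin call lost without DMSO replicate 1 (0.11), DMSO replicate 3 (0.12) or rapamycin replicate 1 (0.12). That call was also lost with no filter on low counts (adjusted p = 0.0732 in edgeR) and in the DESeq2 test (adjusted p = 0.0933), and 16.8% of the exonic length of Ifi35 overlaps an antisense gene. Ifi44 failed the filter with 3 to 14 counts per library.

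**Figure D4:**
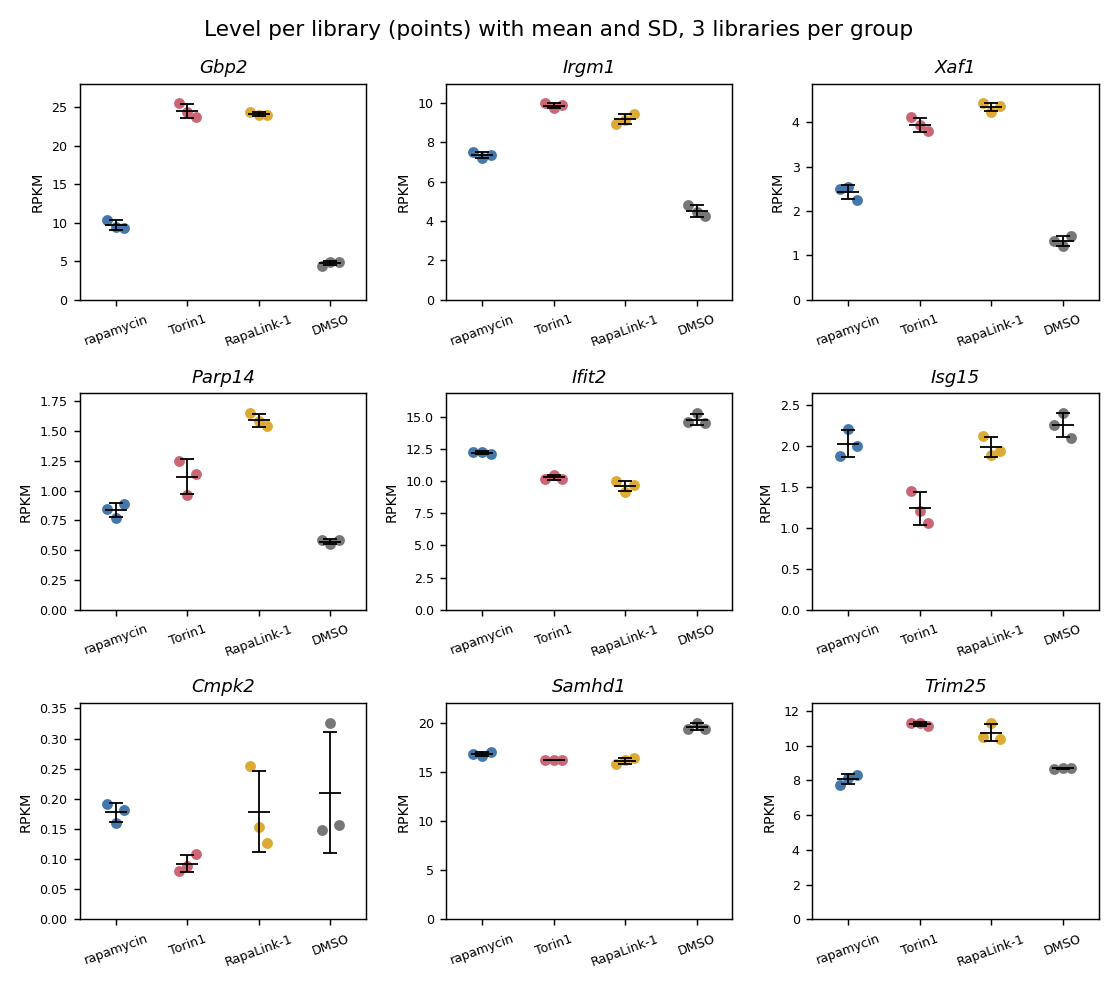
RPKM in each of the 12 libraries for 9 members that rose, fell or moved in opposite directions; points are libraries, bars the mean and SD of 3 libraries, and every axis starts at 0. Gbp2 is above 23 RPKM with Torin1 and RapaLink-1 and below 5 in DMSO, Ifit2 and Samhd1 are highest in DMSO, and 1 DMSO library of Cmpk2 stands apart.

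As in the apoptosis-linked and other induced proteins, where all 3 tested members rose, all 5 immunity GTPases rose with each compound. Some GTPases of this kind coat and break vacuoles that hold bacteria or parasites, and others regulate the family. The median log2 fold change over the 5 was 0.70 with rapamycin, 1.13 with Torin1 and 1.27 with RapaLink-1, and the summed level was 20.8 to 21.8 RPKM, 38.7 to 40.9 RPKM and 39.2 to 39.9 RPKM, against 11.8 to 12 RPKM in DMSO. Gbp2 (chr3:142620602-142638008), a guanylate-binding protein, had 10.4, 9.49 and 9.26 RPKM with rapamycin, 25.5, 24.4 and 23.7 with Torin1, 24.4, 24.0 and 24.0 with RapaLink-1, and 4.45, 4.95 and 4.96 in DMSO. The rapamycin libraries lay between DMSO and the other 2 treatments, which overlapped each other. The fold change of Gbp2 was 2.04 with rapamycin, 5.14 with Torin1 and 5.05 with RapaLink-1, the largest rise of any member with each compound (log2 fold change 1.03 ± 0.05, 2.36 ± 0.04 and 2.34 ± 0.04).

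Gbp3 (chr3:142560026-142573209) lies in the same cluster, between Gbp7 and Gbp2. It had 2.08, 2.31 and 2.08 RPKM with rapamycin, 2.81, 2.46 and 2.65 with Torin1, 3.12, 3.05 and 3.40 with RapaLink-1, and 1.42, 1.37 and 1.18 in DMSO. The log2 fold change was 0.70 ± 0.09 with rapamycin, 0.99 ± 0.09 with Torin1 and 1.27 ± 0.09 with RapaLink-1, and the 4 groups did not overlap. Gbp7 rose by 0.56, 0.76 and 1.08. Close copies in this family may share reads, and 11.3% of the exonic length of Gbp7 overlaps another gene on its strand.

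The immunity-related GTPases on chromosome 11 followed. Irgm1 (chr11:48861968-48871683), a regulator of the family, had 7.52, 7.22 and 7.38 RPKM with rapamycin, 9.99, 9.75 and 9.88 with Torin1, 8.93, 9.15 and 9.47 with RapaLink-1, and 4.83, 4.48 and 4.25 in DMSO. It rose by 0.71 ± 0.04, 1.13 ± 0.04 and 1.02 ± 0.04 on the log2 scale, with no overlap between groups and the Torin1 libraries on top. Igtp (chr11:58199556-58207591), a further regulator, had 0.815, 0.980 and 1.03 RPKM with rapamycin, 1.58, 1.37 and 1.33 with Torin1, 1.65, 1.56 and 1.58 with RapaLink-1, and 0.675, 0.560 and 0.676 in DMSO. Every treated library lay above DMSO, with overlap between Torin1 and RapaLink-1. Igtp rose by 0.56 ± 0.17, 1.15 ± 0.16 and 1.32 ± 0.15, and 8.0% of its exonic length overlaps its relative Irgm2. All 5 genes of this role carried the ISRE core, as did Isg15, Ifit1, Ifit3 and Trim30a, none of which was called higher with any compound under TMM scaling.

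The calls were set beside the promoters and the shares of all genes tested. Of all genes 27.5% rose and 32.2% fell with rapamycin, 39.8% and 38.3% with Torin1, and 38.7% and 37.9% with RapaLink-1. Of the 15 tested members with the core, 7 rose and 1 fell with rapamycin, 9 and 2 with Torin1, and 10 and 2 with RapaLink-1, with medians of 0.28, 0.52 and 0.80. Of the 11 tested members whose window lacked these letters, 5 rose and 3 fell with rapamycin, 8 and 3 with Torin1, and 8 and 2 with RapaLink-1, with medians of 0.11, 0.47 and 0.68. The ranges of log2 fold change overlapped widely, from -0.88 to 2.36 with the core and from -1.14 to 1.57 without it under Torin1. Xaf1, with no exact match to the core in its window, stood among the largest rises. Isg15, with 3 copies, fell with Torin1. The search took only these exact letters in a fixed window, so looser forms of the element were not counted. Whether the core had a part in the changes was not tested, nor was a difference between members with and without it.

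The compounds were then compared with each other at the doses used, which differ, so each comparison is one between these treatments. Against rapamycin, Torin1 gave higher values in 16 members and lower in 5 (50% and 15.6%), where 34.2% and 33.2% of all genes were called. Against rapamycin, RapaLink-1 gave higher values in 19 and lower in 3 (59.4% and 9.38%), where 32.0% and 33.0% of all genes were called. The median of the members was 0.33 for Torin1 against rapamycin and 0.52 for RapaLink-1 against rapamycin. The largest differences in both comparisons were those of Gbp2, at 1.34 ± 0.04 for Torin1 and 1.31 ± 0.04 for RapaLink-1. Oasl2 was higher by 0.70 ± 0.17 with Torin1 and 1.19 ± 0.16 with RapaLink-1, and Bst2 by 0.81 ± 0.05 and 0.88 ± 0.05. Ifit2 was lower than with rapamycin, by log2 differences of -0.25 ± 0.04 with Torin1 and -0.35 ± 0.04 with RapaLink-1. The lower calls of Samhd1, at -0.05 and -0.06, turned to 0.01 and 0.02 under upper-quartile scaling, and were lost with only genes of at least 5 CPM on average (-0.02 and -0.03) or without rapamycin replicate 3 (-0.05 in both). For Torin1 against rapamycin upper-quartile scaling called 21 members higher and 4 lower, adding Ifih1, Gbp7, Usp18, Irf1 and Ifit3 to those higher, and over all genes 6359 and 4489, where TMM scaling called 5451 and 5288. For RapaLink-1 against rapamycin that scaling called 19 members higher and 1 lower, and over all genes 6296 and 4311, where TMM scaling called 5088 and 5260.

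RapaLink-1 and Torin1 differed less. Of the 32 members 14 were higher with RapaLink-1 and 3 lower (43.8% and 9.38%), where 16.7% and 16.4% of all genes were called, and the median difference was 0.12. With 1 library left out, 10 to 14 members were higher. The higher calls of Ifih1 (0.30) and Xaf1 (0.14) were lost with no filter on low counts. Both were also lost in the DESeq2 test and in several fits without 1 library. That of Eif2ak2 was lost without Torin1 replicate 1 or Torin1 replicate 2 (0.09 in both). No member was called at 2-fold or more in this comparison, where 0.333% of all genes were that much higher and 1.09% that much lower. Parp14 was higher with RapaLink-1 by 0.51 ± 0.07 on the log2 scale (adjusted p = 3.71e-11), Ddx58 by 0.28 ± 0.04 (adjusted p = 9.71e-12) and Oasl2 by 0.49 ± 0.14 (adjusted p = 0.00365). Isg15, which fell with Torin1, was higher with RapaLink-1 by 0.69 ± 0.20 (adjusted p = 0.00444). Cmpk2 was higher by 0.90 ± 0.36 at the low counts given above, and by 0.59, not called, without RapaLink-1 replicate 1. That call was also lost without Torin1 replicate 1 (0.82) or Torin1 replicate 2 (0.87), with no filter on low counts (0.90) and in the DESeq2 test (0.93). The lower calls were Irgm1 (-0.10), Ifit2 (-0.10) and Ifit3 (-0.58), and the count of lower members was 1 without Torin1 replicate 3, RapaLink-1 replicate 2 or RapaLink-1 replicate 3. That of Ifit2 was lost with DESeq2 size factors (-0.09), upper-quartile scaling (-0.08) or no filter on low counts (-0.09). It was also lost without any 1 of the Torin1 libraries, RapaLink-1 replicate 2 or RapaLink-1 replicate 3. The calls of Irgm1 and Ifit3 were each lost in several fits without 1 library. DESeq2 called 0 of the 30 members to which it gave an adjusted p lower in this comparison, with 3 lower at an unadjusted p under 0.05.

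For several members no difference between RapaLink-1 and Torin1 was called, which does not show that they acted alike. The 95% interval of the log2 difference ran from -0.09 to 0.04 for Gbp2, from -0.05 to 0.04 for Samhd1 and from -0.04 to 0.11 for Stat2, so larger differences of these members lay outside the interval. It was wider for genes with few reads, from -0.56 to 0.49 for Irf7 and from -0.49 to 1.05 for Rsad2. For Stat2 the intervals against rapamycin ran from -0.13 to 0.01 with Torin1 and from -0.10 to 0.04 with RapaLink-1, neither called. Stat2 was called lower for Torin1 against rapamycin without Torin1 replicate 1 (-0.11), RapaLink-1 replicate 1 (-0.08) or RapaLink-1 replicate 2 (-0.08).

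Other gene lists of the pathway were counted beside all genes tested, of which 27.5% rose and 32.2% fell with rapamycin, 39.8% and 38.3% with Torin1, and 38.7% and 37.9% with RapaLink-1. Of 36 signalling genes 28 were tested, and 13 rose and 5 fell with rapamycin, 14 and 9 with Torin1, and 17 and 7 with RapaLink-1, with medians of 0.07, 0.12 and 0.16. Jak2, the kinase of the interferon gamma receptor, rose by 0.23, 1.27 and 0.91 with rapamycin, Torin1 and RapaLink-1. Ikbke, a kinase that activates IRF factors, rose by 0.81, 1.18 and 1.53, and the receptor chain Ifngr2 by 0.38, 0.62 and 0.81. Cgas, the sensor of DNA in the cytosol, fell by log2 fold changes of -0.38, -1.36 and -1.20, and Ptpn11, a phosphatase, by -0.17, -0.66 and -0.52. Stat3 rose by 0.09, 0.48 and 0.43.

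Of 74 other interferon-inducible genes 57 were tested, and 29 rose and 6 fell with rapamycin, 38 and 10 with Torin1, and 43 and 5 with RapaLink-1, beside the shares of all genes just given. Their medians were 0.22, 0.45 and 0.60. Tgtp1, a GTPase related to Igtp, averaged 0.442 ± 0.0751 RPKM with rapamycin, 2.43 ± 0.117 with Torin1, 1.45 ± 0.0750 with RapaLink-1 and 0.124 ± 0.0283 in DMSO (SD, n = 3 each), rises of 3.51-fold, 19.3-fold and 11.5-fold; close copies of this gene may share its reads. Uba7, the enzyme that activates ISG15 for transfer, rose by 1.26, 1.43 and 1.96 on the log2 scale. Isg15 itself was at -0.16, -0.88 and -0.19. Parp10, a relative of Parp14, rose by 0.58, 1.12 and 1.48. Psme1, a proteasome activator subunit, rose by 0.14, 0.63 and 0.74, and Tapbp, a chaperone of peptide loading with 22.0% antisense overlap, by 0.30, 0.45 and 0.70. Slfn9 fell, with log2 fold changes of -0.18, -1.62 and -1.20.

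A list of chemokines, which held both interferon-inducible and inflammatory ones, was set beside the same shares of all genes. Of the 7 tested of 8 listed, 5 rose and 1 fell with rapamycin, 6 and 1 with Torin1, and 6 and 1 with RapaLink-1. Ccl5 averaged 11.3 ± 0.623 RPKM with rapamycin, 48.7 ± 1.51 with Torin1, 27.3 ± 0.537 with RapaLink-1 and 6.22 ± 1.09 in DMSO (SD, n = 3 each). Cxcl10, a classical target of interferon gamma, averaged 3.65 ± 0.110 RPKM with rapamycin, 1.74 ± 0.144 with Torin1, 3.35 ± 0.316 with RapaLink-1 and 4.29 ± 0.233 in DMSO (SD, n = 3 each), and it was the 1 that fell, by -0.23, -1.30 and -0.35 on the log2 scale. Ccl2, Ccl7, Cxcl1 and Cxcl5, which answer to inflammatory signals, rose with each compound, by log2 fold changes of 0.21 (Cxcl5 with Torin1) to 0.91 (Ccl2 with RapaLink-1).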

How the data were processed

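RNA was sequenced from 12 libraries of mouse embryonic fibroblasts, 3 each for rapamycin, Torin1, RapaLink-1 and DMSO, grouped by the treatment label. The deposited values are whole-number read counts per gene made by the authors with featureCounts, per the file headers, and were used unchanged. The submitters' processing notes list Trimmomatic 0.36, STAR 2.5.2b, Subread 1.5.2, DESeq2 and GRCm38. The sources used here give no strand setting, no rule for multi-mapping reads and no annotation release, so overlapping genes and close copies may share reads.

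Symbols came from GENCODE M21, and gene positions, on GRCm38, are those of the count tables. Genes were filtered with filterByExpr by group, scaled with TMM factors and tested with edgeR 4.0.16 in R 4.3.3 (robust quasi-likelihood fit of the group over all 12 libraries, 8 residual degrees of freedom), with Benjamini-Hochberg adjustment over 15917 genes and a call at an adjusted p under 0.05. Values after ± are SE for log2 fold changes and SD for levels. RPKM were computed from the counts, TMM-scaled library sizes and the tables' exonic lengths. The test was also run on simulated counts, with few genes changed and a common spread for all genes, unlike these data. That run does not cover scaling where many genes change, or changes in genes with few counts. An exact permutation test of 1 value between 3 and 3 libraries has 0.1 as its smallest p.

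The members and gene lists were chosen with earlier results of these data known, so no list was tested. Values per library are given for the 5 largest called rises and falls with each compound and for members called in opposite directions, up to 6 genes of each other list were named by the smallest p among the 4 groups, and Ifnb1, Ifnar1, Ifnar2, Jak1 and Tyk2 were named as the head of the pathway. Some listed genes are not reported here by name. Promoters were printed for the 6 of the members given per library that hold the core and had the largest changes. Replicate pairs had a chi-square over degrees of freedom of 1.33 to 1.99 over genes with at least 20 counts, so no library looked deposited more than once. Alternatives were DESeq2 size factors, upper-quartile factors, no filter, a filter at a mean of 5 CPM, the DESeq2 1.42.0 test, a fit of only the 2 groups compared, a replicate block, and 12 fits that each left out 1 library.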

Additional observations from a re-analysis of the deposited data

How the results depend on the processing

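The 6 comparisons of 32 members gave 192 tests and 131 calls, of which 18 were lost, and 17 further ones gained, under at least 1 alternative. Upper-quartile scaling put the median member log2 fold change at 0.74 for Torin1 and 0.88 for RapaLink-1 against DMSO and at 0.60 for RapaLink-1 against rapamycin, with 3 and 1 members lower for RapaLink-1 against DMSO and against rapamycin. It reversed Eif2ak2 for RapaLink-1 against DMSO (0.03) and Samhd1 for Torin1 (0.01) and RapaLink-1 (0.02) against rapamycin, none called there. The filter at a mean of 5 CPM, which by construction drops low members, left 2, 3 and 2 members lower for rapamycin, Torin1 and RapaLink-1 against DMSO, with medians of 0.29, 0.88 and 0.96. Against rapamycin it left 2 lower for Torin1, with a median of 0.44, and 1 lower for RapaLink-1. With no filter the median for RapaLink-1 against DMSO was 0.65. The DESeq2 test called 0 members lower for RapaLink-1 against Torin1, with 3 lower at an unadjusted p under 0.05. The cause of these shifts was otherwise not tested.

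With 1 library left out, the median against DMSO was 0.11 to 0.20 (rapamycin), 0.53 to 0.67 (Torin1) and 0.68 to 0.79 (RapaLink-1). For RapaLink-1 against Torin1, from 10 to 14 members were then higher and from 1 to 4 lower. Values without a call changed sign in 23 of the 192 tests under some alternative, with a size of at most 0.30 afterwards. No pairing of the samples by replicate number was detected. Correlations of deviations over all genes tested were -0.0391 to 0.0587 between same-numbered libraries of different groups. Between differently numbered ones they were -0.0478 to 0.0414. Counting noise can hide a weak pairing in such correlations, so a weak pairing is not excluded. The fit with a replicate block kept all 192 calls and non-calls, with 14, 21 and 21 members higher and 4, 6 and 5 lower for rapamycin, Torin1 and RapaLink-1 against DMSO. Depth limited Oas1a, Ifi44, Trim30a, Rsad2, Cmpk2 and Irf7, which had at most 35 counts in any library.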
